A study of Mus musculus with 12 samples.

Results

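The guanylate-binding proteins (GBPs) described here are Gbp2, Gbp3, Gbp4, Gbp5, Gbp6, Gbp7, Gbp8 and Gbp9, taken as every probe whose platform gene symbol is one of these 8 names. They are 8 of 19057 gene symbols on the array and are represented by 14 of its 45281 probes. Of the 8 genes, 5 (Gbp2, Gbp3, Gbp5, Gbp7 and Gbp9) had a probe detected on at least 2 of 12 arrays and were tested among 15561 features. Gbp4, Gbp6 and Gbp8 were not detected on any of the 12 arrays.

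Total RNA from hearts of untreated mice was hybridised to Illumina expression arrays, 1 array per heart sample. The mice were of mixed C57BL6/129Sv background and differed in Trex1, intact (Trex+/+) or knocked out (Trex-/-), and in STING, carried as STING+/+, STING+/- or STING-/-. Each of the 6 genotypes (Trex+/+ STING+/+, Trex+/+ STING+/-, Trex+/+ STING-/-, Trex-/- STING+/+, Trex-/- STING+/- and Trex-/- STING-/-) has 2 arrays, and Trex+/+ STING+/+ is the wild type. The labels leave unsaid the age and sex of the mice, the part of the heart taken and how the knockouts were made. They also leave unsaid whether the 2 arrays of a genotype come from separate mice. In 2 genotypes the arrays came from mice of different sex, by Xist and the Y chromosome gene Eif2s3y. Xist read 4.47 and 8.93 in the hearts labelled Trex-/- STING+/+, where Eif2s3y read 10.09 and 4.35. In Trex+/+ STING-/- hearts Xist read 9.97 and 4.53, and Eif2s3y 4.45 and 10.14. For the other genotypes this is unknown, so p-values measure the spread between these arrays, which may be technical there.

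GBPs are large GTPases of the dynamin superfamily that cells make in response to interferons, above all interferon-gamma. They assemble on the vacuoles and membranes of intracellular bacteria and parasites, damage them and bring in caspases of the inflammasome pathway. Trex1 is an exonuclease that clears DNA from the cytosol, and STING is an adaptor protein that turns the detection of such DNA by cGAS into a type I interferon response.

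In the mouse the family lies in 2 clusters. Gbp2, Gbp3, Gbp5 and Gbp7 are on chromosome 3, and Gbp4, Gbp6, Gbp8 and Gbp9 are on chromosome 5. The promoters of the chromosome 3 members are shown because these are the members whose signal followed the genotypes. Each is the RefSeq window from 250 bases before to 50 bases after an annotated transcript start, plus strand of GRCm38.p6, 5′ to 3′. Capitals mark every match to an interferon-stimulated response element core (ISRE: GAAA, any 2 bases, GAAA; on the other strand TTTC, any 2 bases, TTTC), the kind of sequence bound by interferon regulatory factors, or to a gamma-activated site core (GAS, TTCNNNGAA, which reads the same on both strands), the kind of sequence named for its part in the response to interferon-gamma.
Gbp2, chr3:142620413-142620712: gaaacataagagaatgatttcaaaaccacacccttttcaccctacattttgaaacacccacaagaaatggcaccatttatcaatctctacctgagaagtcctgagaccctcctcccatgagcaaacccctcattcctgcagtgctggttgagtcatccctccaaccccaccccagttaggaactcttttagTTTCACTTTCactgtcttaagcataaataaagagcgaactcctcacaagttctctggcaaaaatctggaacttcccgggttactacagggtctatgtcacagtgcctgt
Gbp3, chr3:142559794-142560093: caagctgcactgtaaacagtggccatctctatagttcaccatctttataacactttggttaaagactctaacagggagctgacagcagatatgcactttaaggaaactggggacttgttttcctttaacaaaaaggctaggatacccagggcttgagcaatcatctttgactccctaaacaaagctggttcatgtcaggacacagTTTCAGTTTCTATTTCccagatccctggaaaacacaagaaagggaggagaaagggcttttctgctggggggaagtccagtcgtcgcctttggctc
Gbp5, chr3:142496684-142496983: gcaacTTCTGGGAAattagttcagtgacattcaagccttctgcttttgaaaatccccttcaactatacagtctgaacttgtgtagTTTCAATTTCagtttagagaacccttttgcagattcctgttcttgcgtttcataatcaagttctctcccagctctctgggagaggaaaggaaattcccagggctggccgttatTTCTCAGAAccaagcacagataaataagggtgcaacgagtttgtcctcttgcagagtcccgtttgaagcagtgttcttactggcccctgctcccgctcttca
Gbp7, chr3:142530086-142530385: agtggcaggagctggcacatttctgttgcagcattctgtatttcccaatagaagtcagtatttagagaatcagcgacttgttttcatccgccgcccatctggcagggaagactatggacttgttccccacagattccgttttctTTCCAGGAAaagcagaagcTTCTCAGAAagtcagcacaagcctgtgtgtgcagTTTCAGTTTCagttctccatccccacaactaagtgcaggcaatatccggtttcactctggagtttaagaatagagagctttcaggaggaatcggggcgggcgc

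All 4 windows hold the ISRE core. It begins 59 bases upstream of the start in Gbp2, 53 in Gbp7 and 165 in Gbp5. In Gbp3 a pair of overlapping matches begins 45 and 39 bases upstream, in the first of its 2 annotated windows; the other window holds none. The GAS core was found in the windows of Gbp5 (245 and 52 bases upstream) and Gbp7 (106 and 87 bases upstream) and not in those of Gbp2 and Gbp3. Of all 32851 promoter windows of this length, 3.44% hold the ISRE core, 8.3% the GAS core and 0.454% both. A match describes these letters only. Gbp4, Gbp6, Gbp8 and Gbp9 have no entry in the promoter table.

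Signals are given as log2 values after background correction and quantile normalization; the authors deposited linear intensities. Between 38.3% and 44.7% of probes were detected per array (detection p under 0.05), and the lowest detected log2 signal per array was 4.83 to 5.13, so values near 4.5 are at background. The number of arrays, 2 per genotype, limits the precision. Of 10 cardiomyocyte markers 9 were measured, and all 9 were detected on every array. On the Trex1 probe that separates the genotypes (ILMN_3131766), Trex+/+ hearts had log2 signals of 6.53 to 7.34 and 5 of the 6 Trex-/- hearts had 5.38 to 5.68. The array labelled Trex-/- STING+/+ replicate 2 had 6.76, inside the Trex+/+ range. That array also had a low Hnrnpa2b1 signal (5.91, against 8.47 on Trex+/+ STING+/- replicate 1 and 10.91 to 11.63 on the other 10 arrays). Where these probes lie relative to the knocked-out part is not stated. The Sting1 probe read 7.03 and 6.94 in the hearts labelled Trex-/- STING+/+, 5.75 and 5.05 with STING+/-, and 4.72 and 5.02 with STING-/-. In Trex+/+ hearts it read 5.71 and 5.15 with STING+/+, 4.79 and 5.24 with STING+/-, and 4.82 and 4.67 with STING-/-. It was thus lower with fewer STING alleles in Trex-/- hearts. In Trex+/+ hearts, near background, neighbouring STING genotypes overlapped, so it did not settle the label of each array. Groups were taken from the genotype label; a STING state written in the sample descriptions differs from it for 7 of 12 samples. Since these doubts touch the group labelled Trex-/- STING+/+, the differences of members and the counts of listed genes in the comparisons with this group are also given without its replicate 2. Mean signal of the atrial marker list was raised (8.54 to 11.69, other arrays 6.78 to 7.16) in Trex-/- STING+/- replicate 2, both Trex+/+ STING-/- hearts and Trex-/- STING-/- replicate 2.

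Loss of Trex1 in hearts carrying both STING alleles was accompanied by large rises of Gbp2, Gbp3, Gbp5 and Gbp7. This comparison sets the hearts labelled Trex-/- STING+/+ against wild type and addresses whether cardiac GBP expression follows Trex1. Gbp2 was 18.6-fold and Gbp3 17-fold higher, and Gbp5 and Gbp7 were 6.17-fold and 6.09-fold higher. Gbp9 did not pass the test.

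Gbp2, which in mice accumulates on Toxoplasma vacuoles and helps to control the parasite, had log2 signals of 8.56 and 9.45 in Trex+/+ STING+/+ hearts, 8.92 and 8.86 in Trex+/+ STING+/- hearts and 9.30 and 9.25 in Trex+/+ STING-/- hearts. In the Trex-/- hearts it was 13.52 and 12.93 with STING+/+, 11.98 and 10.86 with STING+/-, and 9.16 and 9.46 with STING-/-. All 4 Trex-/- hearts with at least 1 STING allele were above the other 8 hearts, and the Trex-/- STING-/- hearts lay among the Trex+/+ hearts. The mean rose from 9.00 ± 0.63 (SD, n = 2) in wild type to 13.22 ± 0.42 (SD, n = 2), a log2 difference of 4.22 ± 0.39 (SE; limma, Benjamini-Hochberg adjusted p = 8.79e-05).

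Gbp3, which in mice is also recruited to Toxoplasma vacuoles, had log2 signals of 8.44 and 8.95 in Trex+/+ STING+/+ hearts, 8.10 and 8.83 in Trex+/+ STING+/- hearts and 8.65 and 8.68 in Trex+/+ STING-/- hearts. In the Trex-/- hearts it was 13.23 and 12.33 with STING+/+, 12.79 and 11.41 with STING+/-, and 8.77 and 8.51 with STING-/-. The same 4 hearts were high as for Gbp2, and here the 2 genotypes among them overlapped. The mean went from 8.70 ± 0.36 to 12.78 ± 0.64 (SD, n = 2 each), a log2 difference of 4.09 ± 0.45 (SE; limma, adjusted p = 0.000215).

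Gbp5, linked in mouse macrophages to assembly of the NLRP3 inflammasome, had log2 signals of 5.29 and 5.81 in Trex+/+ STING+/+ hearts, 4.83 (not detected) and 5.38 in Trex+/+ STING+/- hearts and 5.55 and 5.23 in Trex+/+ STING-/- hearts. In the Trex-/- hearts it was 8.85 and 7.51 with STING+/+, 8.13 and 6.95 with STING+/-, and 6.01 and 5.19 with STING-/-. Again the 4 Trex-/- hearts with a STING allele stood above all others. From 5.55 ± 0.37 in wild type it rose to 8.18 ± 0.95 (SD, n = 2 each), by 2.63 ± 0.50 on the log2 scale (SE; limma, adjusted p = 0.00482).

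Gbp7, linked in mouse macrophages to assembly of the phagocyte NADPH oxidase on bacterial vacuoles, had log2 signals of 6.96 and 7.27 in Trex+/+ STING+/+ hearts, 6.81 and 7.16 in Trex+/+ STING+/- hearts and 7.11 and 6.84 in Trex+/+ STING-/- hearts. In the Trex-/- hearts it was 10.13 and 9.32 with STING+/+, 9.96 and 8.73 with STING+/-, and 7.21 and 6.89 with STING-/-. The split between 4 high and 8 low hearts was the same. Its mean rose from 7.11 ± 0.22 to 9.72 ± 0.57 (SD, n = 2 each), by 2.61 ± 0.39 on the log2 scale (SE; limma, adjusted p = 0.00127).

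Gbp9, the only chromosome 5 member with a tested probe, was detected in 2 hearts only, replicate 1 of the group labelled Trex-/- STING+/+ (5.46) and replicate 1 of Trex-/- STING+/- (4.91). The other array of each group read 4.29 and 4.89 and was not above background. The remaining 8 arrays read 4.37 to 4.67. The log2 difference in the STING+/+ hearts was 0.36 ± 0.32 (SE; limma, adjusted p = 0.464). Because it passed the filter through these 2 arrays alone, no fold is given. The undetected probes of Gbp4 (4.34 to 4.58), Gbp6 (4.30 to 4.46) and Gbp8 (4.32 to 4.42) and the second Gbp9 probe (4.36 to 4.64) stayed at background in all 6 genotypes, which does not show that their transcripts were absent.

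**Figure D1:**
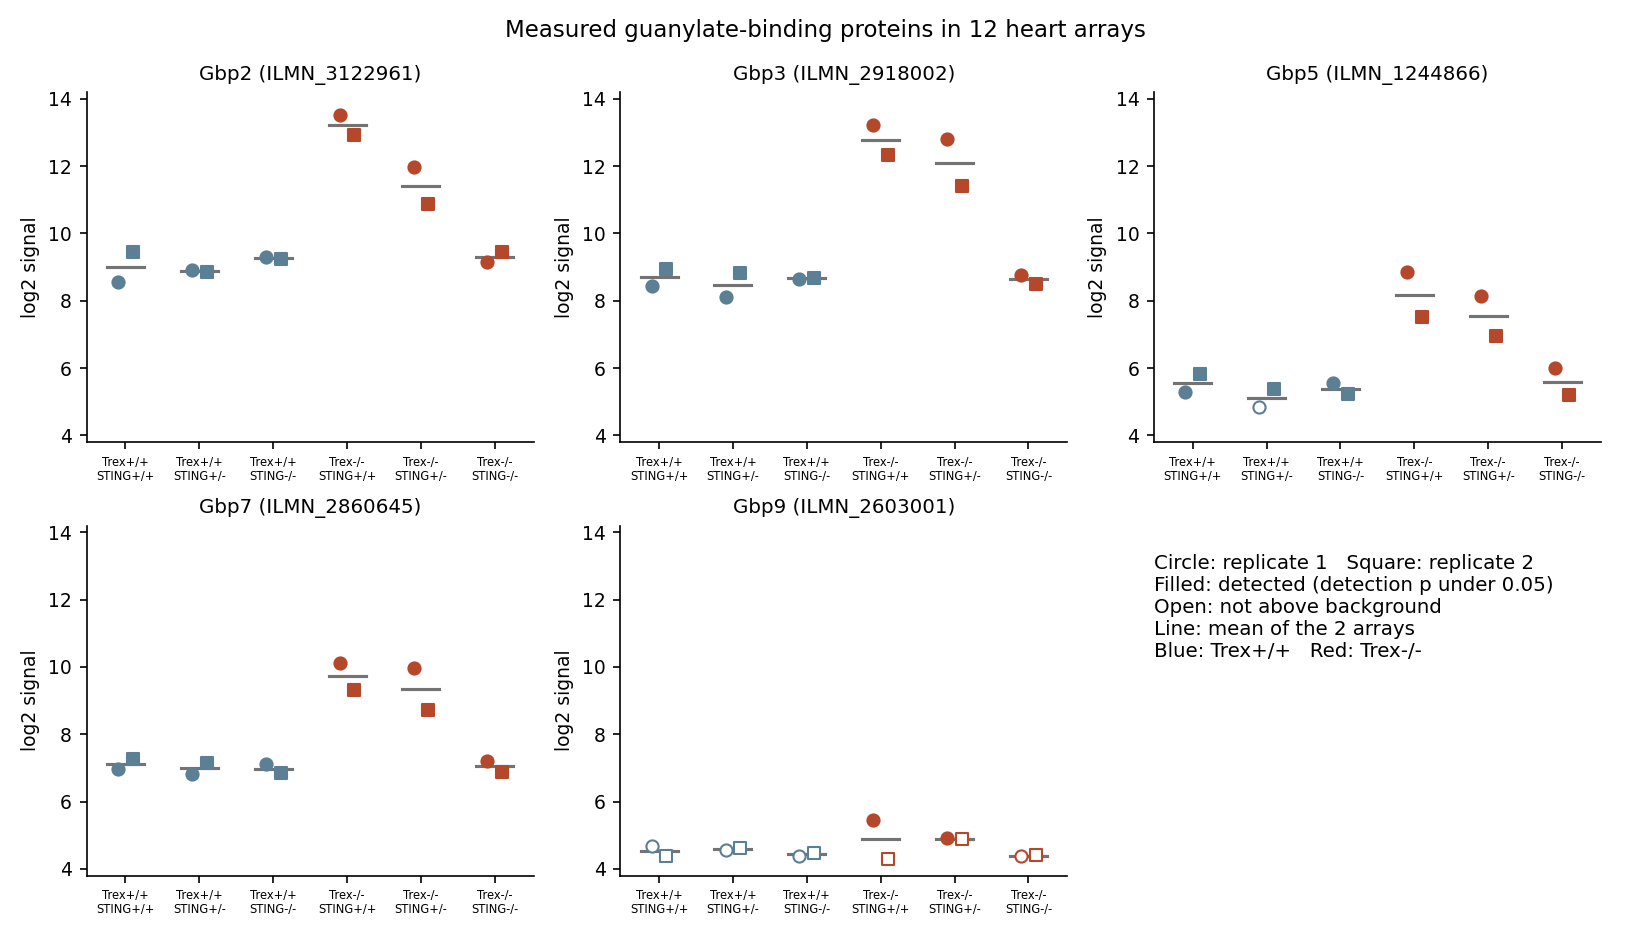
Log2 signal (vertical axis) of the 5 tested GBP members in each of 12 heart arrays, by genotype (horizontal axis); circles are replicate 1, squares replicate 2, open symbols are not above background and lines are means of 2 arrays. For Gbp2, Gbp3, Gbp5 and Gbp7 the 4 Trex-/- hearts with a STING allele lie above the other 8 (Gbp2: 10.86 to 13.52 against 8.56 to 9.46), while Gbp9 reaches 5.46 at most.

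Of the 5 tested members, 4 rose with Trex1 loss on STING+/+ and 0 fell; among all 15561 features 11.8% rose and 9.93% fell. The arrays of both groups did not overlap for 4 of 5 members, against 26.6% of features that were higher without overlap. The median log2 difference of the 5 members was 2.63 and that of all features -0.04. Gbp9 passed the detection filter only through 1 array of each Trex-/- group with a STING allele, which tilted its test towards a rise. None of the 4 members that rose passed the filter in this way. Without replicate 2 of the group labelled Trex-/- STING+/+, the log2 differences were 4.51 for Gbp2, 4.53 for Gbp3, 3.30 for Gbp5 and 3.01 for Gbp7, and all 4 still passed (adjusted p 0.000411 to 0.00288), the remaining array being assumed to vary like the other groups. Gbp9 (0.94) then passed as well, with only its detected array left in that group.

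The sexes were not balanced between these groups. Xist was high in both wild-type hearts, in replicate 2 of the group labelled Trex-/- STING+/+ and in replicate 1 of Trex+/+ STING-/-, and near background elsewhere. With Xist signal (high or low) as a block, the log2 differences were 4.09 for Gbp2, 3.85 for Gbp3, 2.37 for Gbp5 and 2.47 for Gbp7, all still past the threshold (adjusted p 0.000555 to 0.0171).

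In hearts with 1 STING allele, 3 of the 5 tested members rose with Trex1 loss, where 1.14% of all features rose. Gbp3 was 12.4-fold higher (log2 difference 3.63 ± 0.45 SE; limma, adjusted p = 0.00437), Gbp2 5.76-fold (2.53 ± 0.39; adjusted p = 0.0119) and Gbp7 5.15-fold (2.37 ± 0.39; adjusted p = 0.0179). Gbp5 had a log2 difference of 2.44 ± 0.50 and an adjusted p of 0.0528, and Gbp9 one of 0.31 ± 0.32 with an adjusted p of 0.761. The arrays did not overlap for Gbp2, Gbp3, Gbp5 and Gbp7, against 18.9% of features that were higher without overlap. Those of Gbp9 did not overlap either (4.91 and 4.89 against 4.56 and 4.62), but only the first was above background. The median was 2.44 for the 5 members and -0.05 for all features. These calls depended on single arrays: leaving out 1 array at a time gave 0 to 4 members called, with 0 called without Trex+/+ STING+/- replicate 1 (Gbp3 3.27, adjusted p = 0.0513) and 1, Gbp3, without Trex+/+ STING+/- replicate 2 or without Trex-/- STING+/- replicate 1. The log2 differences without any 1 array stayed between 2.94 and 4.33 for Gbp3, 1.97 and 3.08 for Gbp2, and 1.75 and 2.98 for Gbp7.

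In hearts without STING, no member passed the test of Trex-/- against Trex+/+. The log2 differences were 0.04 for Gbp2, -0.02 for Gbp3, 0.21 for Gbp5, 0.08 for Gbp7 and -0.04 for Gbp9, each with a limma adjusted p of 1, and 0 of 5 reached an unadjusted p under 0.05. Among all features 0.0129% were called in either direction. The 95% interval was -0.82 to 0.90 for Gbp2, -1.03 to 0.99 for Gbp3, -0.91 to 1.33 for Gbp5 and -0.80 to 0.95 for Gbp7, so the differences measured with both STING alleles or with 1 lie above these intervals, and changes within them were not detectable with 2 arrays a group.

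**Figure D2:**
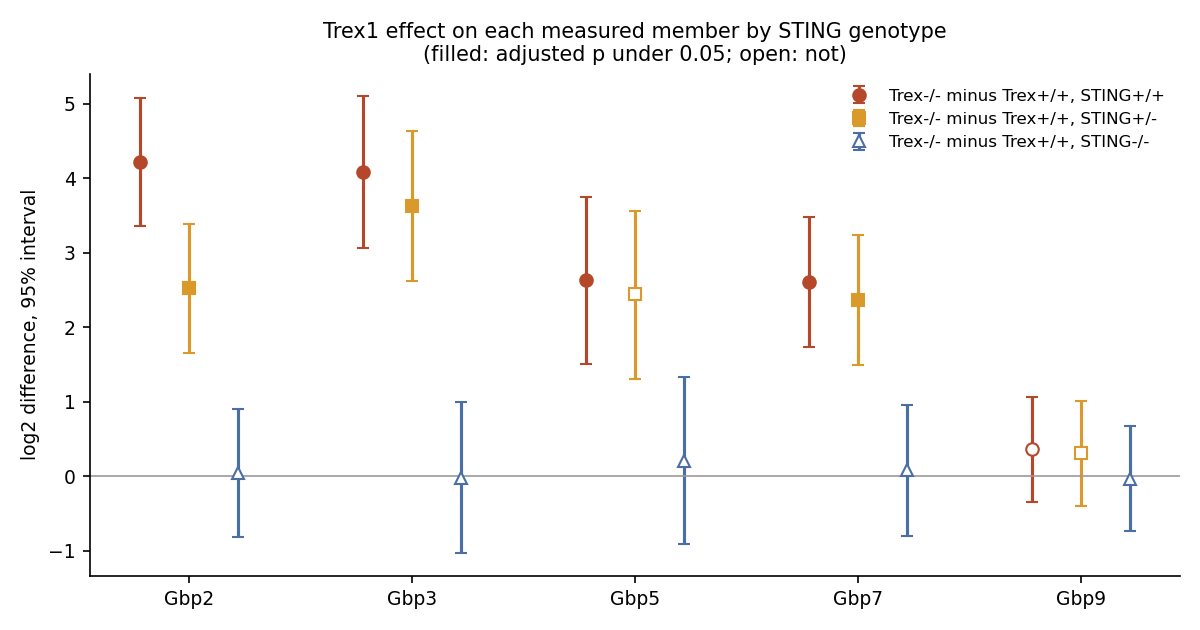
Log2 difference Trex-/- minus Trex+/+ (vertical axis, bars are 95% intervals) for each tested member on STING+/+ (circles), STING+/- (squares) and STING-/- (triangles); filled symbols passed an adjusted p of 0.05. Gbp2 falls from 4.22 to 2.53 to 0.04 across the 3 STING genotypes, Gbp3 from 4.09 to 3.63 to -0.02, and all STING-/- intervals include 0. The difference between the effects on STING+/+ and STING+/- did not pass the test for any member.

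The difference between these Trex1 effects was tested directly. The effect on STING+/+ exceeded that on STING-/- for 3 of 5 members, by 4.18 ± 0.55 log2 units for Gbp2 (limma, adjusted p = 0.00192), 4.11 ± 0.64 for Gbp3 (adjusted p = 0.00397) and 2.53 ± 0.55 for Gbp7 (adjusted p = 0.0194). Without replicate 2 of the group labelled Trex-/- STING+/+ these were 4.47 (adjusted p = 0.00328), 4.56 (adjusted p = 0.00481) and 2.93 (adjusted p = 0.0138). The Gbp7 call was lost with no filter (adjusted p = 0.0527) and without Trex+/+ STING+/+ replicate 1 or any 1 of the 4 STING-/- arrays (2.37 to 2.69, adjusted p 0.0524 to 0.0786). Of all features 6.4% had a larger effect in this sense. For Gbp5 the difference was 2.42 ± 0.71 (adjusted p = 0.0614), and 3.09 (adjusted p = 0.0215) without that replicate. No member passed for STING+/+ against STING+/-, where 1.39% of features did; 1 of 5 had an unadjusted p under 0.05, Gbp2, with a difference of 1.69 (95% interval 0.47 to 2.92; adjusted p = 0.131; 1.99 and 0.146 without that replicate). None passed for STING+/- against STING-/-, where 0.244% of features did, although 4 of 5 had an unadjusted p under 0.05; the largest was Gbp3 with 3.66 (adjusted p = 0.068), and without Trex-/- STING+/- replicate 2 Gbp2 (3.05, adjusted p = 0.0302), Gbp3 (4.35, adjusted p = 0.0109) and Gbp7 (2.90, adjusted p = 0.0282) were called.

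Among Trex-/- hearts, GBP signals were lower without STING. With no allele against both, 4 of 5 members fell, as did 12.7% of all features: Gbp3 fell by 4.14 on the log2 scale (limma, adjusted p = 0.000182), Gbp2 fell by 3.91 (adjusted p = 0.000111), Gbp7 fell by 2.67 (adjusted p = 0.00106) and Gbp5 fell by 2.58 (adjusted p = 0.00497). The comparison shares the group labelled Trex-/- STING+/+ with the Trex1 comparison on STING+/+, so the 2 are not independent. Without replicate 2 of the group labelled Trex-/- STING+/+ all 4 passed, at -4.20 for Gbp2, -4.59 for Gbp3, -3.25 for Gbp5 and -3.07 for Gbp7, and Gbp9 (-1.07) passed on its detected array alone. Without the arrays with raised atrial signal, Gbp5 no longer passed (-2.17, adjusted p = 0.0688).

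With 1 allele against both, Gbp2 alone was called, on its brightest probe. It was lower by 3.49-fold (log2 difference -1.80 ± 0.39 SE, limma, adjusted p = 0.0175), where 6.75% of features were lower. The second Gbp2 probe (ILMN_3047389) did not show this over all arrays, with means of 7.53 ± 2.21 with both alleles and 7.50 ± 0.50 with 1 (SD, n = 2 each). Its difference was -1.60 without replicate 2 of the group labelled Trex-/- STING+/+, which read 5.96 on that probe. On the brightest probe the Gbp2 arrays of the 2 groups did not overlap, whereas those of Gbp3, Gbp5 and Gbp7 did. The intervals of these 3 members were -1.69 to 0.33, -1.76 to 0.48 and -1.25 to 0.50. Without replicate 2 of the group labelled Trex-/- STING+/+ Gbp2 still passed (-2.10, adjusted p = 0.033). The Gbp2 call was lost without Trex-/- STING+/- replicate 2 (-1.24, adjusted p = 0.141), the array of that group with raised atrial signal.

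With no allele against 1, Gbp3 fell by 3.46 (limma, adjusted p = 0.0051), Gbp7 fell by 2.30 (adjusted p = 0.0194) and Gbp2 fell by 2.11 (adjusted p = 0.0302), that is 3 of 5 members against 1.21% of features. Gbp5 had -1.94 (adjusted p = 0.118). Without the arrays with raised atrial signal 0 of 5 passed (Gbp3 -4.03, adjusted p = 0.0508), and 1 passed without Trex-/- STING+/- replicate 1 (Gbp3) and 0 without Trex-/- STING-/- replicate 2. The Gbp2 call was also lost without Trex-/- STING-/- replicate 1 and without either array of Trex+/+ STING+/- or Trex+/+ STING-/- (adjusted p 0.0523 to 0.113).

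In Trex+/+ hearts the STING genotype made no detectable difference to the members. With 1 allele or with none against both, 0 of 5 members passed in limma and 0 of 5 had an unadjusted p under 0.05, while 0.0129% and 0.0578% of features were called in either direction. For Gbp2 the log2 differences were -0.11 and 0.27, for Gbp3 -0.23 and -0.03. On its brightest probe, the order of Gbp2 signals by genotype was therefore Trex-/- STING+/+ (13.22), Trex-/- STING+/- (11.42) and then the other 4 groups between 8.89 and 9.31, which did not differ beyond their spread. For Gbp3, Gbp5 and Gbp7 the upper 2 genotypes were in the same order and did not differ beyond their spread either.

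The members also varied together between replicates. In both Trex-/- groups with a STING allele, replicate 1 was higher than replicate 2 for Gbp2 (by 0.59 with STING+/+ and 1.12 with STING+/-), Gbp3 (0.90 and 1.39), Gbp5 (1.34 and 1.19) and Gbp7 (0.81 and 1.23). In the other 4 genotypes the 2 arrays differed by at most 0.89 for these genes. The replicate 1 arrays of the 2 Trex-/- groups also had the largest shares of detected probes (44.7% with STING+/+ and 44.6% with STING+/-, against 40.2% and 40.4% on replicate 2). The mean of the other interferon-inducible GTPases was likewise higher on replicate 1 (11.17 against 10.68, and 10.22 against 9.11), so the shift was not particular to the members. Not every list described below shared it. With STING+/+ the inflammasome and pyroptosis genes (7.90 against 8.64) and the T cell and NK cell markers (8.55 against 8.87) were lower on replicate 1. With STING+/- both were higher on replicate 1 (7.18 against 6.58 and 7.19 against 6.42). The source of the shift was not tested. The mean-centred mean of the 5 tested members was 2.48 and 1.52 in the hearts labelled Trex-/- STING+/+, 1.80 and 0.81 in Trex-/- STING+/- hearts and -1.11 to -0.59 in the other 8.

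Several members have more than 1 probe, and the values above are those of each gene's brightest one. The second probes of Gbp3 and Gbp7 were also highest in the 4 Trex-/- hearts with a STING allele. The second Gbp3 probe (ILMN_1244513) read 12.83 and 12.02 in the hearts labelled Trex-/- STING+/+, 12.32 and 10.90 in Trex-/- STING+/- hearts and 8.01 to 8.66 in the other 8. The second Gbp7 probe (ILMN_2860649) read 8.43 and 7.52, then 7.15 and 6.59, and 4.58 to 5.60 in the other 8. It rose on STING+/+ by 2.58 ± 0.42 (limma over all probes, adjusted p = 0.00214), and by 3.04 (adjusted p = 0.0024) without replicate 2 of the group labelled Trex-/- STING+/+. On STING+/- it was not called (1.69, adjusted p = 0.116), nor with no allele against 1 (-1.77, adjusted p = 0.0938), where the brighter Gbp7 probe was. Its arrays of the upper 2 genotypes did not overlap, whereas those of the brighter probe did.

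The second Gbp5 probe (ILMN_1218150) was detected in 3 hearts only, at 5.99 and 6.18 in those labelled Trex-/- STING+/+ and 4.89 in Trex-/- STING+/- replicate 1. It was at least 2.12-fold higher in the former than in wild type, where it was not above background; having passed the filter through these hearts alone, it had to differ, and no test is given. Its "at least" fold sets the mean of the detected group against the lowest signal that would have been detected.

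The 3 probes of Gbp2 disagreed. The second (ILMN_3047389) read 9.10 in replicate 1 but 5.96 in replicate 2 of the group labelled Trex-/- STING+/+, and 7.86 and 7.14 in Trex-/- STING+/- hearts. The other 8 arrays read 4.53 to 5.93. Replicate 2, the array with the unexpected Trex1 signal, was thus only just above the low hearts on this probe, although it was at 12.93 on the brightest Gbp2 probe, and the difference from wild type was not called (2.02 ± 0.75; adjusted p = 0.0866). Without that replicate it was (3.59, adjusted p = 0.000324). The third probe (ILMN_2605602) was detected only in the hearts labelled Trex-/- STING+/+ (4.99 and 5.63) and, having passed the filter through them alone, is given without a test (at least 1.24-fold). Without the probes' positions, transcript forms, and cross-hybridisation between these related genes, cannot be told apart.

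**Figure D3:**
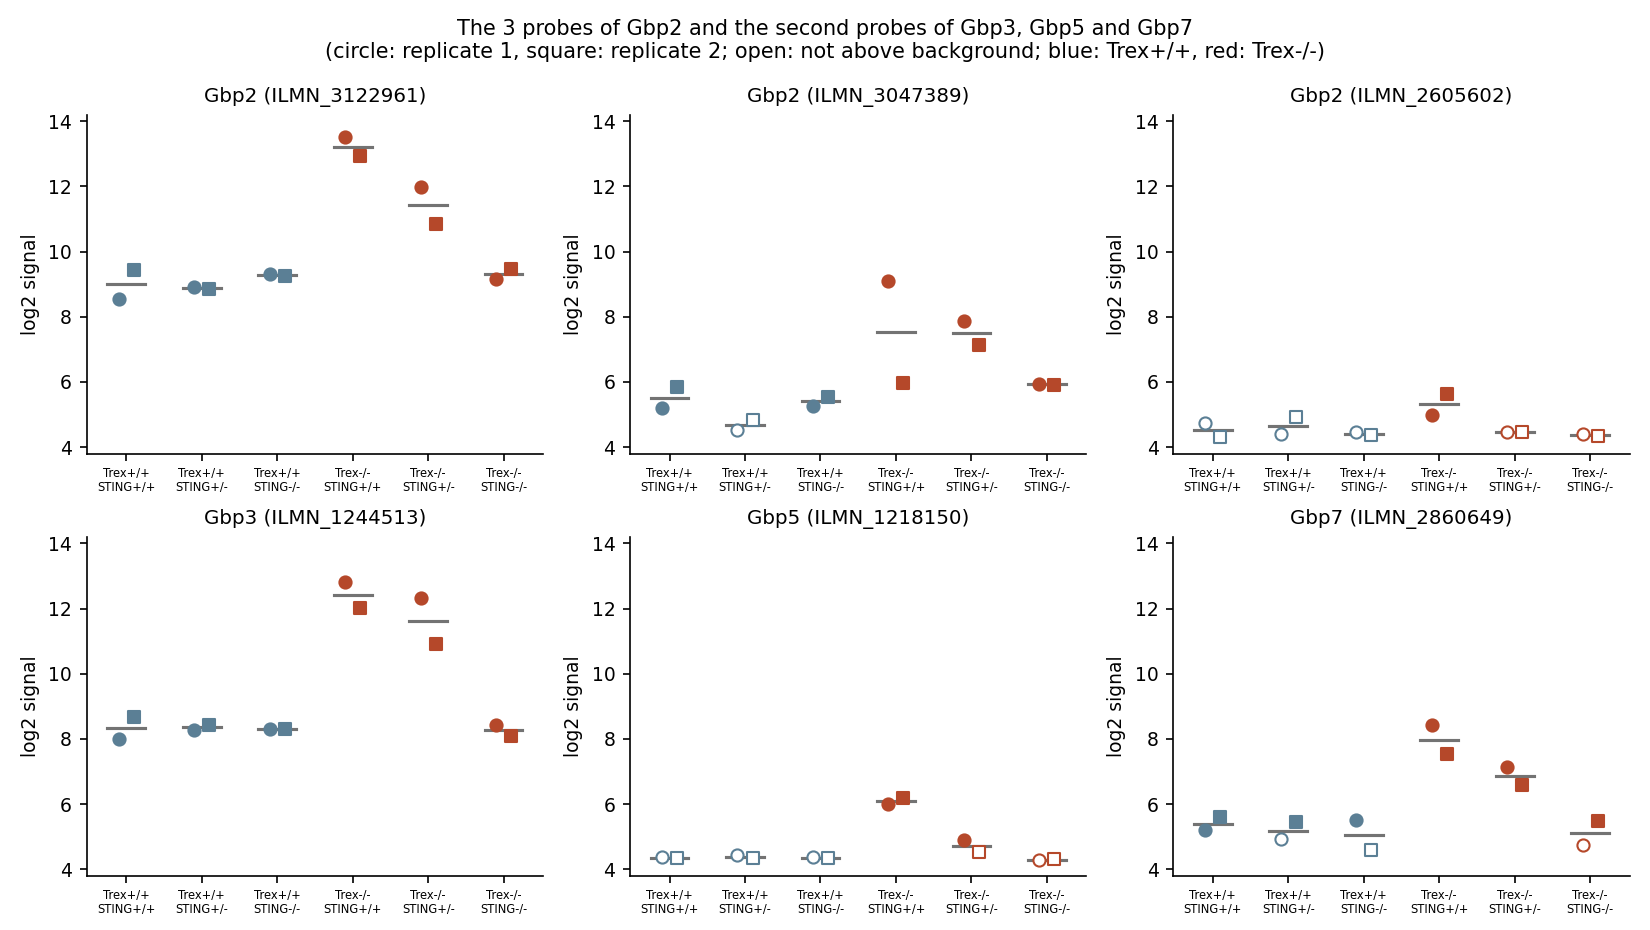
Log2 signal (vertical axis) by genotype (horizontal axis) for all 3 Gbp2 probes and the second probes of Gbp3, Gbp5 and Gbp7; circles are replicate 1, squares replicate 2, open symbols not above background. The second Gbp2 probe drops from 9.10 to 5.96 between the 2 arrays labelled Trex-/- STING+/+, while the brightest stays at 13.52 and 12.93.

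Genes that carry interferon signals to GBP promoters rose in part. Of 17 listed genes 15 were measured; 8 (9 without replicate 2 of the group labelled Trex-/- STING+/+) rose and 1 fell with Trex1 loss on STING+/+ (median log2 difference 1.05), 4 rose on STING+/- (median 0.52) and on STING-/- the median was 0.02, beside medians of -0.04, -0.05 and 0.01 over all features. Over all features 11.8% rose and 9.93% fell on STING+/+, and 1.14% rose on STING+/-. These shares also stand beside the counts of each list below, cell markers included. The genes counted as risen on STING+/+ include Ifng, which was detected only in the hearts labelled Trex-/- STING+/+ and so had to differ. Irf7, the regulator that amplifies type I interferon, rose by 6.03 on STING+/+ and 4.44 on STING+/-. Batf2, an interferon-inducible transcription factor, rose by at least 20-fold on STING+/+. Irf8, a factor of myeloid cells, rose by 3.03. Irf7 and Batf2 (3.14) were among the 4 that rose on STING+/-. Ifngr2, a subunit of the interferon-gamma receptor that fell by 0.83 on STING+/+, was named after its values were seen.

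Ifng, the gene of interferon-gamma, was detected only in the hearts labelled Trex-/- STING+/+, at 6.99 and 6.44 on the log2 scale. The other 10 arrays read 4.41 to 4.93 and were not above background. It was at least 3.28-fold higher there than in wild type. Since it passed the detection filter through these 2 arrays alone, it had to differ, and no test is given. In Trex-/- STING+/- hearts, in which Gbp2, Gbp3 and Gbp7 had risen, Ifng read 4.73 and 4.57. A signal at background does not show that the transcript was absent, and the part of Ifng in the GBP differences was not tested.

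Other interferon-inducible GTPases, most of them immunity-related GTPases that act with GBPs on vacuoles, rose with the members. Of 11 listed, 8 were measured; 7 rose on STING+/+ with or without replicate 2 of the group labelled Trex-/- STING+/+ (median 3.47) and 4 on STING+/- (median 1.93), and the median on STING-/- was -0.12. The 4 were Igtp (5.85 on STING+/+ and 4.11 on STING+/-), Ifi47 (5.03 and 3.14), Irgm2 (4.15 and 3.21) and Tgtp1 (at least 12.5-fold on STING+/+ and a log2 difference of 2.28 on STING+/-). Igtp read 14.32 and 13.75 in the hearts labelled Trex-/- STING+/+, 13.24 and 11.93 in Trex-/- STING+/- hearts and 7.85 to 8.52 in the other 8, the same split as the GBPs.

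The inflammasome and pyroptosis genes, which act downstream of GBPs, had all 7 measured members of 8 up on STING+/+ (median 2.30) and 1 up on STING+/- (median 1.07). Without replicate 2 of the group labelled Trex-/- STING+/+ 6 were up. One of the genes, Aim2, was detected only in Trex-/- hearts with STING and so had to differ. Casp1, the inflammasome protease, rose by 3.46 on STING+/+ and 2.29 on STING+/-. Casp4 (mouse caspase-11, the sensor of cytosolic lipopolysaccharide) rose by 3.30, Il1b by 2.40 and Il18 by 2.30 on STING+/+. On STING-/-, 0 genes of any list described here, cell markers included, were called in limma and 0 had an unadjusted p under 0.05.

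Among genes whose products modify or place GBPs, none passed the test as higher. Of 5 prenylation enzymes, which attach the lipid anchor of some GBPs, 0 rose and Fnta fell by 0.67 on STING+/+ (adjusted p = 0.0299). Of 7 genes of ubiquitin-like conjugation, which directs these GTPases to vacuoles, 0 rose and Map1lc3b fell by 0.85 (limma, adjusted p = 0.0112). With 1 fall in each of these short lists, the counts cannot be set apart from the 9.93% of all features that fell. Of the 20 nearest measured genes flanking the 2 GBP clusters, 0 rose, and 2 fell, Kyat3 and Zfp644, a share near the 9.93% of all features that fell; Zfp644 did not pass without replicate 2 of the group labelled Trex-/- STING+/+ (-0.59, adjusted p = 0.143). On STING+/- 0 genes of these 3 lists were called in limma, with 0, 2 and 3 at an unadjusted p under 0.05.

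**Figure D4:**
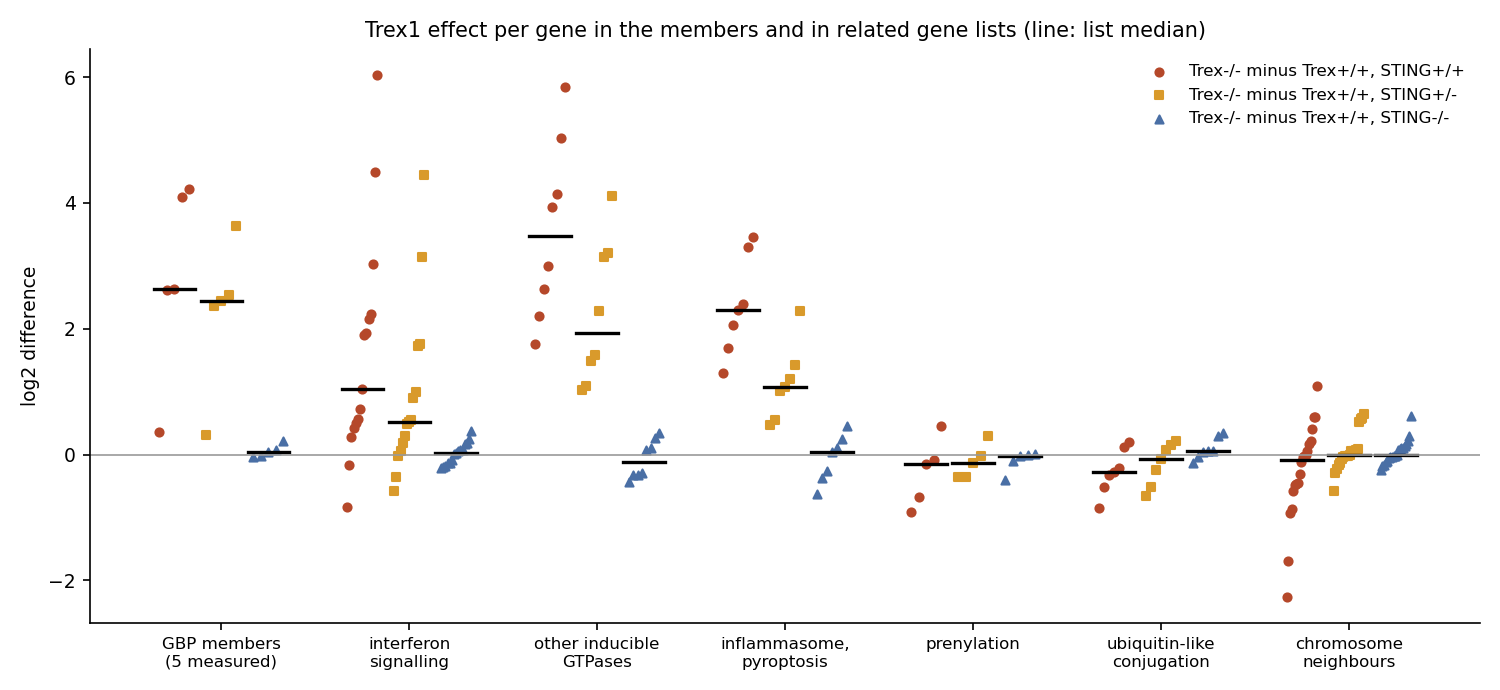
Log2 difference Trex-/- minus Trex+/+ (vertical axis) for each measured gene of the GBP members and of 6 gene lists (horizontal axis), on STING+/+ (circles), STING+/- (squares) and STING-/- (triangles); lines are list medians. On STING+/+ the medians are 2.63 for the 5 members, 3.47 for other inducible GTPases and 2.30 for inflammasome genes, against -0.08 for chromosome neighbours.

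The 5 genes whose signal over 12 arrays was most like the mean-centred mean of the tested members were Phf11d (Pearson r = 0.996), Ifit2 (0.994), Cxcl10 (0.993), Parp14 (0.993) and Clspn (0.992). These r values describe likeness only, since the arrays fall into 4 high and 8 low ones. Ifit2, an interferon-induced RNA-binding protein, differed by 4.54 on STING+/+, 4.18 on STING+/- and 0.27 on STING-/-. Cxcl10, a chemokine for T cells, differed by 5.92, 4.12 and 0.07.

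Mean signals of the macrophage and T cell marker lists, like the GBP mean, were highest in the 4 Trex-/- hearts with a STING allele. Within the group labelled Trex-/- STING+/+ they did not fall from replicate 1 to replicate 2 as the GBP mean did (2.48 to 1.52). The macrophage and monocyte mean was 9.86 and 9.90 there, and the T cell and NK cell mean 8.55 and 8.87. In bulk tissue, more cells of a type and more RNA per cell cannot be told apart. Of 15 macrophage and monocyte markers 11 were measured; 8 rose and 3 fell on STING+/+ (7 and 2 without replicate 2 of the group labelled Trex-/- STING+/+), and 1, Mpeg1, rose on STING+/- (by 2.51). Ms4a7 rose by 5.00, Mpeg1 by 4.02 and C1qb by 3.45, while Cd163, typical of tissue-resident macrophages, was not detected in the hearts labelled Trex-/- STING+/+ and lower there by at least 10.8-fold. Their summed signal was 26300 to 28500 in the hearts labelled Trex-/- STING+/+, 7110 to 10900 in Trex-/- STING+/- hearts and 2610 to 5260 in the other 4 genotypes.

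Of 12 T cell and NK cell markers 8 were measured; 6 rose on STING+/+, with or without that replicate, and 3 on STING+/- (Nkg7, Cd3g and Cd3d). Of the 6, 3 (Cd3d, Cd3e and Klrk1) were detected only in Trex-/- hearts with STING and so had to differ. For Cd3d this also tilted the test on STING+/- towards a rise. Nkg7 rose by 4.98 on STING+/+, and the T cell receptor subunits Cd3g, Cd3d and Cd3e were at least 23.2-fold, 22.4-fold and 13-fold higher. Their summed signal was 3850 to 5010 in the hearts labelled Trex-/- STING+/+, 1350 to 1790 in Trex-/- STING+/- hearts and 881 to 1290 elsewhere. Cd3d and Cd3e were not detected on any of the other 8 arrays. Of 9 measured cardiomyocyte markers 5 fell on STING+/+, with or without that replicate, led by Ryr2 (-1.56), Ttn (-1.46), Myh6 (-1.20) and Tnni3 (-1.14). The part of these cell markers in the GBP differences was not tested.

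**Figure D5:**
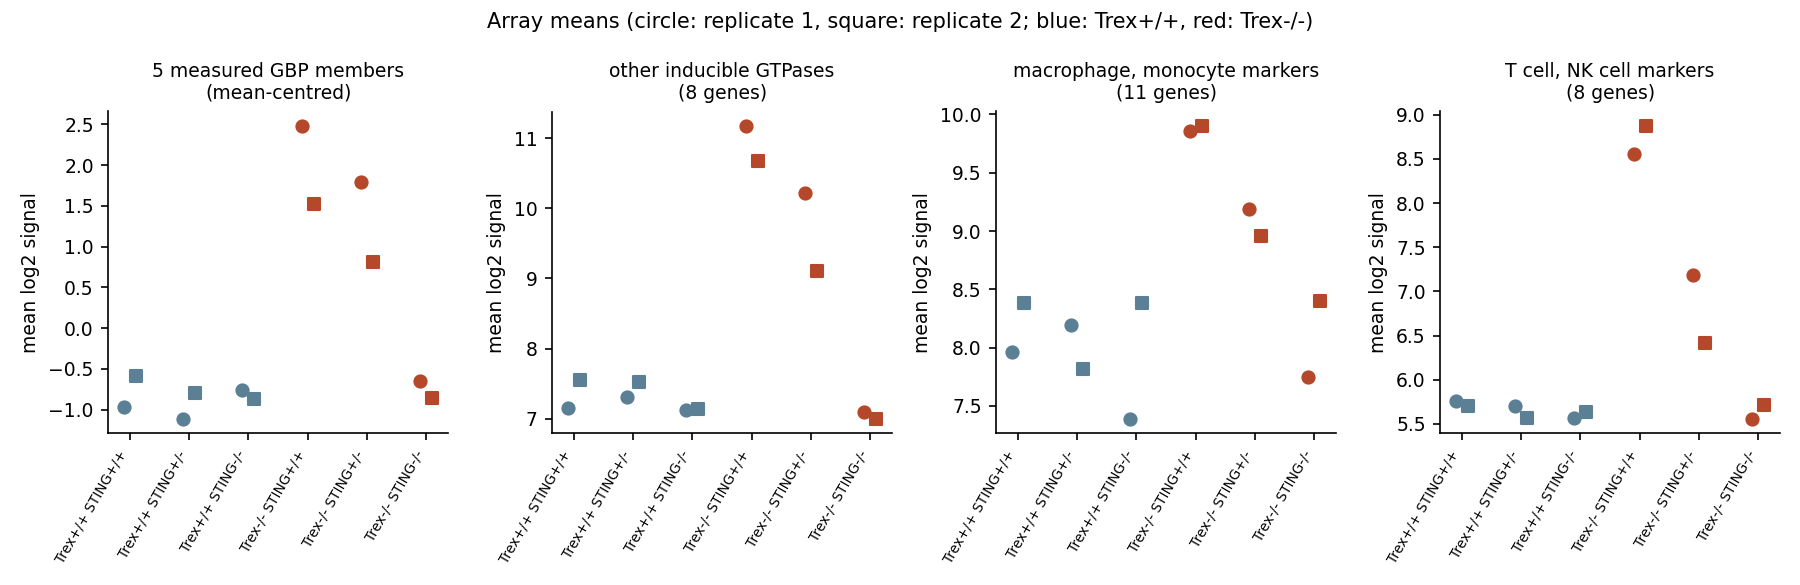
Mean log2 signal per array (vertical axes) by genotype (horizontal axis) for the 5 tested GBP members, centred on each gene's mean, for 8 other inducible GTPases, 11 macrophage and monocyte markers and 8 T cell and NK cell markers; circles are replicate 1, squares replicate 2. The GBP mean is 2.48 and 1.52 in the hearts labelled Trex-/- STING+/+ and 1.80 and 0.81 in Trex-/- STING+/- hearts; all 4 panels have the 4 Trex-/- hearts with a STING allele above the other 8.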

How the data were processed

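Heart RNA of 12 samples in 6 genotypes was hybridised as biotinylated cRNA to Illumina arrays (per the labels' protocols). No scanner or scanner software is named in the labels. The authors deposited 1 non-normalized linear intensity per probe and array. The score beside it, headed as a detection p-value, is high for bright probes (rank correlation with the signal 0.979 to 0.988) and was therefore taken as 1 minus that p. The authors also deposited processed log2 values, centred on each probe's median, which were used as an alternative; their correlation with centred quantile-normalized signals was at least 0.99991 over 8047 bright probes.

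In R 4.3.3 with limma 3.58.1, intensities went through neqc (offset 16, quantile normalization), 22810 of 45281 probes were kept for reaching a detection p below 0.05 on 2 or more arrays, and the brightest probe stood for each gene. This gave 15561 features, of which 12080 had 1 symbol. Symbols came from the platform annotation, updated by Entrez ID to GRCm38.p6 (34807 of 34885 probes with 1 symbol matched; 18 had several symbols and 10378 none). All 6 genotype means were fitted together with lmFit and eBayes (6 residual degrees of freedom); p-values were Benjamini-Hochberg adjusted over all features, with a threshold of 0.05. No 2 arrays had identical signals. The pipeline was tested on simulated data.

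Members and lists were chosen with earlier results of these data known. Named genes are the 8 members, the targeted genes, up to 4 called genes per list with the largest difference on STING+/+, the 5 genes most like the members and the genes behind doubts about arrays. Alternatives covered normalization, detection filter, choice of probe, variance model, array weights, the groups in the fit, Xist signal as a block and arrays left out; leaving out the arrays with raised atrial signal, and list and second-probe values without Trex-/- STING+/+ replicate 2, were added after seeing the data.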

Additional observations from a re-analysis of the deposited data

Results flagged for a closer look

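The effect of Trex1 loss differed between hearts with both STING alleles and hearts with none for 3 members, by a limma test of the difference itself. On the log2 scale the effect was larger with both alleles by 4.18 ± 0.55 for Gbp2 (4.22 against 0.04), 4.11 ± 0.64 for Gbp3 (4.09 against -0.02) and 2.53 ± 0.55 for Gbp7 (2.61 against 0.08). The Gbp7 difference no longer passed without Trex+/+ STING+/+ replicate 1 or any 1 of the 4 STING-/- arrays (adjusted p 0.0524 to 0.0786). Each rests on the group labelled Trex-/- STING+/+, whose replicate 2 has a Trex1 signal in the Trex+/+ range; without it the differences were 4.47, 4.56 and 2.93.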

How the results depend on the processing

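Over 24 alternatives, 429 values were recomputed for member differences past the threshold; all 429 kept their direction and 387 still passed. Of 860 values for differences not past it, 22 passed and 53 had the other sign without passing. The counts of members called for Trex1 loss on STING+/+ (4, range 4 to 5), for loss on STING-/- (0) and for no STING allele against both in Trex-/- (4, range 3 to 5) stayed within 1.5 times. For Trex1 loss on STING+/- the count of 3 became 1 with no filter, with only the groups compared and without the 2 arrays with a low Hnrnpa2b1 signal, and 0 to 4 when 1 array was left out. For 1 allele against both in Trex-/- the count of 1 became 0 with array weights, with only the groups compared and without the arrays with raised atrial signal, and 0 to 1 when 1 array was left out. For no allele against 1 in Trex-/- the count of 3 became 1 with no filter, 0 with only the groups compared and 0 without the arrays with raised atrial signal, and 0 to 3 when 1 array was left out. The difference of Trex1 effects between STING+/+ and STING-/- (3) became 5 without the 2 arrays with a low Hnrnpa2b1 signal and 2 to 5 when 1 array was left out; that between STING+/- and STING-/- (0) became 1 with a variance trend, 1 with array weights and 0 to 3 when 1 array was left out. The cause was not tested, apart from fewer samples or more features tested where the alternative is built so. Over all features the calls for Trex1 loss ranged from 1418 to 5168 around 3378 on STING+/+, 52 to 318 around 197 on STING+/- and 0 to 44 around 2 on STING-/-. For 1 allele against both in Trex-/- they ranged from 6 to 4102 around 1713, for none against 1 from 65 to 384 around 211, and for none against both from 1288 to 5456 around 3727. In Trex+/+ they ranged from 0 to 16 around 2 and from 3 to 166 around 9. For the differences between effects they ranged from 1 to 3027 around 299, 651 to 3392 around 1536 and 3 to 116 around 40.

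No paired analysis was possible because the labels number the samples without sharing replicate numbers between genotypes. Leaving out an array leaves 1 in its group, which is then assumed to vary like the others. Without the arrays with raised atrial signal no Trex+/+ STING-/- array remains, so comparisons with that group have no value. Gbp4, Gbp6, Gbp8 and Gbp9, near background, limit what can be said of the chromosome 5 members.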

Other observations

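Probes of 3 further family genes, Gbp10, Gbp11 and Gbp2b, were looked at after their values were seen. Gbp10, on chromosome 5 beside the undetected members, had log2 signals of 11.35 and 9.35 in the hearts labelled Trex-/- STING+/+ and 10.74 and 9.59 in Trex-/- STING+/- hearts, against 4.87 to 6.85 in the other 8. With Trex1 loss it rose by 3.93 on STING+/+ (limma, adjusted p = 0.00353) and 4.30 on STING+/- (adjusted p = 0.0179), and the difference on STING-/- was 0.59 (adjusted p = 1). Gbp11, annotated as a transcribed pseudogene, was detected only in the hearts labelled Trex-/- STING+/+ (5.72 and 5.48), at least 1.51-fold higher than in wild type; it passed the filter through these 2 arrays alone, so no test is given.

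Gbp2b, a chromosome 3 member of the family also known as Gbp1, did not follow the Trex1 genotype. It was detected in 7 of 12 hearts and read 8.03 and 4.67 in wild type, 7.19 and 7.51 in Trex+/+ STING+/- hearts, 7.93 and 7.77 in the hearts labelled Trex-/- STING+/+ and 5.32 and 9.78 in Trex-/- STING+/- hearts. In all 4 STING-/- hearts, with or without Trex1, it was at background (4.46 to 4.66). The Trex1 comparison on STING+/+ had a limma adjusted p of 0.438.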
